A study of Homo sapiens with 8 samples.

Results

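The genes described here are 10 regulators of the G1 phase of the cell cycle: the cyclins CCNA1, CCND1, CCND2, CCND3, CCNE1 and CCNE2 and the cyclin-dependent kinase (CDK) inhibitors CDKN1B, CDKN1C, CDKN2A and CDKN2B. They were picked from the 47753 gene names on the array for their class, with CCNA1 added, when the differences between siUCA1 and sictrl were already known. Their differences between the conditions are therefore given as a description, with no test. OAW42-R cells, a cisplatin-resistant derivative of the ovarian cancer line OAW42, had received either a pool of nontargeting control siRNA (sictrl) or 2 pooled siRNAs (siUCA1) that target UCA1, a long noncoding RNA, at 20 nM in both conditions. Total RNA was hybridized to 8 one-color Agilent arrays, 4 per condition, whose replicates are named A1, M2, A2 and A3. The replicates are independent experiments per the study's methods. The labels give 24 h from transfection to extraction, and the methods give a longer interval. A single cell line was used and no untransfected cells were on these arrays, so effects that both siRNA pools share cannot be seen here.

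In the G1 phase, D-type cyclins bind CDK4 and CDK6, and E-type cyclins bind CDK2. Both kinds of complex phosphorylate the retinoblastoma protein, which then releases E2F transcription factors that switch on genes for DNA replication. The INK4 inhibitors, to which CDKN2A and CDKN2B belong, bind CDK4 and CDK6, while the CIP/KIP inhibitors, to which CDKN1B and CDKN1C belong, bind cyclin-CDK complexes more broadly. CCNA1 encodes an A-type cyclin known best from male germ cells, whereas its relative CCNA2 acts in S phase and mitosis of most dividing cells. In high-grade serous ovarian cancer, CCNE1 is a well-known site of gene amplification, and the p16 protein of CDKN2A is often abundant.

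Values are log2 processed intensities relative to the 75th percentile of the array, and they are comparable between arrays for a given probe but not between probes. Both probes of UCA1 were lower in siUCA1, by 5.04 and 4.76 on the log2 scale, and the groups did not overlap (7.48 to 8.60 against 2.59 to 3.68 for the brighter probe). Between 20858 and 24039 spots per array were well above background. The 6 epithelial markers and PAX8, a marker of serous ovarian cells, were detected on all 8 arrays, whereas WT1 and MUC16 of the same serous list were detected on none. No marker of leukocytes, endothelium or fibroblasts was detected on all 8, although COL1A1 was detected on 5. Of the arrays, sictrl A3 and siUCA1 A1 differed from the rest: the surface trend in brightness fitted and removed by the scanner software was 0.321 and 0.287 on them (root mean square) against 0.0737 to 0.0943 on the other 6. Their median absolute deviation from the other arrays of their own condition was 0.258 and 0.245 on the log2 scale against 0.125 to 0.168. Both lay in column 2 of the single slide, and the plot of member differences gives each kept member probe with and without them.

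The promoters of CCNA1, which differed most between the conditions, and of CCNE1 and CDKN2A, the members tied most closely to ovarian cancer, are shown here. RefSeq promoter windows (GRCh38.p14, from 250 bases before to 50 bases after a transcription start, 5′ to 3′ on the strand of the gene) were matched for 6 of the 10 members, in 9 windows. Capitals mark the GC box GGGCGG or its reverse complement, a sequence bound by SP1-type factors. CCNA1 has 1 window on the plus strand (chr13:36431705-36432004), CCNE1 has 1 on the plus strand (chr19:29811741-29812040), and CDKN2A has an upstream start (chr9:21995275-21995574) and a downstream start (chr9:21974808-21975107), both on the minus strand. The 2 starts of CDKN2A are shown because the gene makes different proteins from them, ARF from the upstream one and p16 from the downstream one.
CCNA1: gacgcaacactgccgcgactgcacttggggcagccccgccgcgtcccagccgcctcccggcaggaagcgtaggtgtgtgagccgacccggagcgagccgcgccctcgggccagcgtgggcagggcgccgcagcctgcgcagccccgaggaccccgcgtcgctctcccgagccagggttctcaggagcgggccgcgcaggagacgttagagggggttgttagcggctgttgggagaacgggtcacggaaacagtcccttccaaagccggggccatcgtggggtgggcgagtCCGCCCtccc
CCNE1: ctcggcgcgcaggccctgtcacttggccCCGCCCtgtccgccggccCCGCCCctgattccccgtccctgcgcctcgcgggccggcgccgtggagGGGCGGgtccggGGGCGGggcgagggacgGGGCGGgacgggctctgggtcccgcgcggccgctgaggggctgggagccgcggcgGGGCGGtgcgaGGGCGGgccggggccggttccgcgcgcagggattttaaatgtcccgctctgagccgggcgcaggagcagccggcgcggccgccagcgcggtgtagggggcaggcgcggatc
CDKN2A upstream start: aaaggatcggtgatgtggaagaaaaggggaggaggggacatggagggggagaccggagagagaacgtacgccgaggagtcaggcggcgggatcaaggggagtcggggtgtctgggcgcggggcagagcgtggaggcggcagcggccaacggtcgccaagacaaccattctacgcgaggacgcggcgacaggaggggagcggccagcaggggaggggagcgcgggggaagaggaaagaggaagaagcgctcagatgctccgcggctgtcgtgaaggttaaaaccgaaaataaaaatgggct
CDKN2A downstream start: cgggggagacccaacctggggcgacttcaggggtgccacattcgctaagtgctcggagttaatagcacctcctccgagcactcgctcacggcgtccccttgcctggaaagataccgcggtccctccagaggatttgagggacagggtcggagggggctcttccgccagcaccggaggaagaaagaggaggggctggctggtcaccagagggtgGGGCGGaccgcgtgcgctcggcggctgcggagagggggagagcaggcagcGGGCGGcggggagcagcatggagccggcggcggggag
The CCNE1 window held 7 GC boxes, the downstream CDKN2A window 2, the CCNA1 window 1 and the upstream CDKN2A window 0. A GC box was found in 7 of the 9 member windows and in 45.0% of the 35116 windows of that length in the table. The GC content of the CCNE1 window was 81.0% and that of the CCNA1 window 72.7%, against a median of 58.7% over all windows. No window of a member held an E2F site written as TTTGGCGC, TTTCCCGC, TTTCGCGC or TTTGCCGC on either strand, which 3.31% of all windows did. No member window held the cell cycle element TTTGAA either (15.2% of all windows), while TGACG, a part of the cAMP response element, was found in those of CDKN1B and CDKN2B (24.6% of all windows). These are matches of letters, and binding was not measured.

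CCNA1 was higher in siUCA1 than in sictrl by more than any other member, and CCND3 was lower. CCNE1, CDKN1B and the brighter probe of CCNE2 were higher by smaller amounts. CCND1 and the brighter probe of CDKN2A differed by less than 0.05 on the log2 scale. CCND2 and CDKN2B were not well above background on any array. All 10 members had a probe, 13 probes in all, and 11 of these probes, for 8 genes, were detected on every array of 1 or both conditions and were kept.

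**Figure D1:**
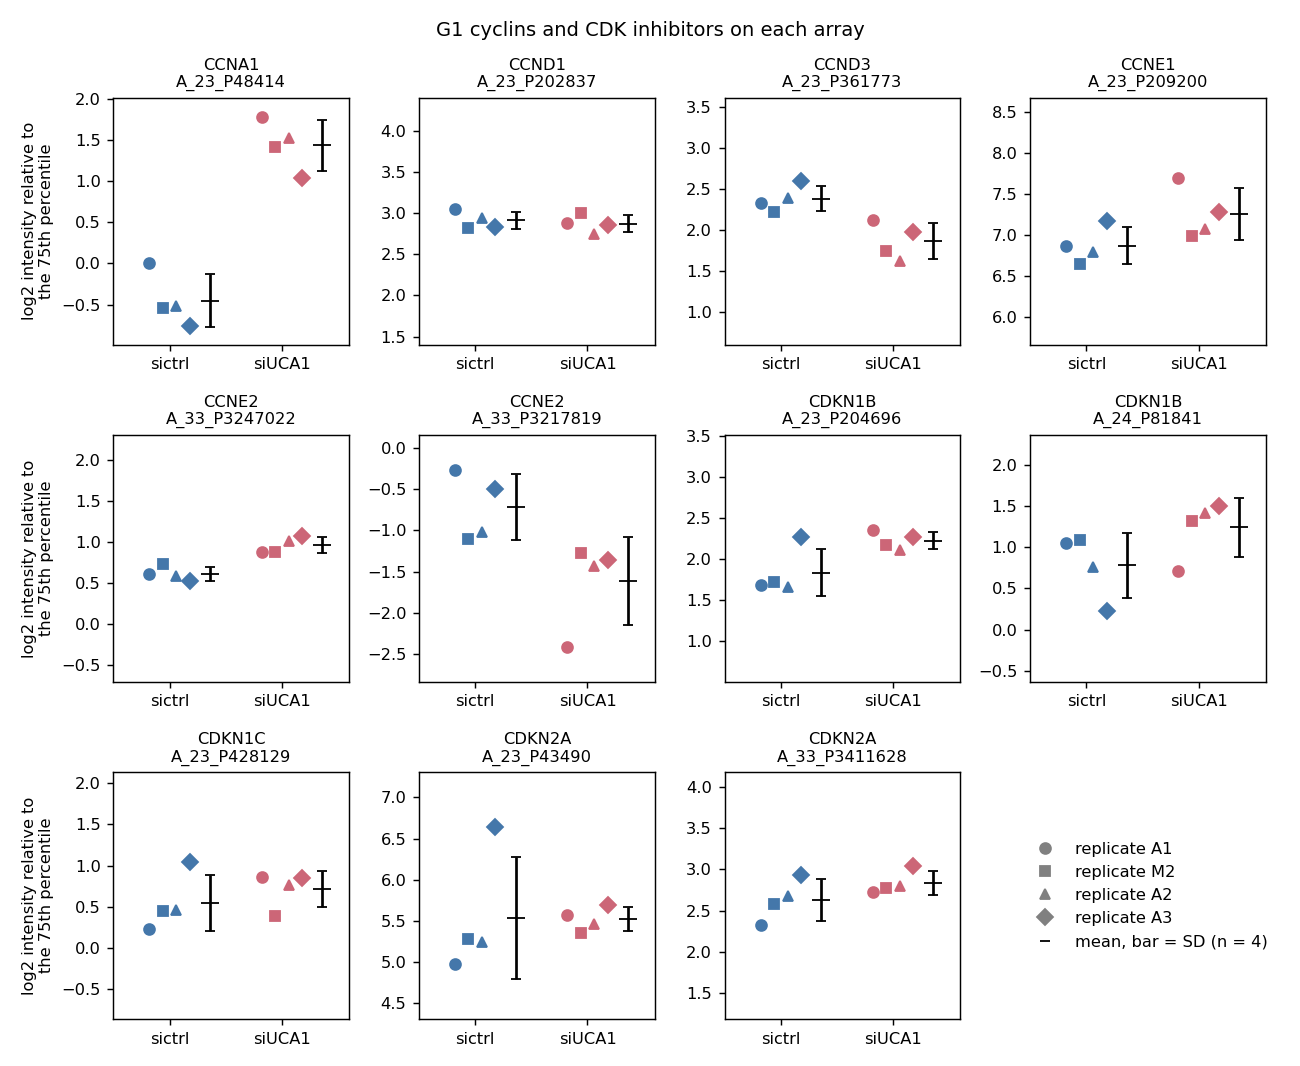
Each panel plots the log2 intensity relative to the 75th percentile of the array for 1 kept probe, with a point per array (blue, sictrl; red, siUCA1), a symbol per replicate name, and the mean with SD (n = 4) in black. The panels all span 3 log2 units but start at different levels, and the 4 siUCA1 points of CCNA1 lie at least 1.03 above the highest sictrl point.

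CCNA1 (probe A_23_P48414, RefSeq NM_003914) read 0.00, -0.54, -0.52 and -0.76 in sictrl and 1.78, 1.41, 1.52 and 1.03 in siUCA1, in the order A1, M2, A2 and A3. The groups did not overlap, and the lowest siUCA1 array lay 1.03 above the highest sictrl array. The mean was -0.45 ± 0.32 (SD, n = 4) in sictrl and 1.44 ± 0.31 in siUCA1, a difference of 1.89 on the log2 scale (SE 0.22), or 3.71-fold. Before scaling, the processed intensity of this probe was 63.6 to 135 in sictrl and 242 to 366 in siUCA1, and the probe was well above background on all 8 arrays. The difference was 1.68 without sictrl A3 and siUCA1 A1, and it was 1.94 among the arrays in row 1 of the slide and 1.84 among those in row 2. The lowest value among 24 other settings was 1.41, with another background correction, normexp. In bulk RNA, a change in the share of cells that hold a transcript and a change in its amount per cell cannot be told apart. A single spot on each array carries this probe, so its reading on 1 array has no second spot to set it against.

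In both conditions the CCNA1 value was highest on A1 and lowest on A3, and 1 of these arrays in each condition stood apart (sictrl A3 and siUCA1 A1). The 5 genes whose levels followed those of CCNA1 most closely, of 11246 genes with a RefSeq symbol detected on all 8 arrays, were FA2H (Pearson's r = 0.998 over the 8 arrays), FNIP2 (0.992), CTSL (0.988), ZCCHC3 (0.988) and UBE2J1 (0.986). All 6 genes share the 8 arrays and a step between the conditions, which raises r. With the mean of each condition removed, r was 0.974 for FA2H, 0.891 for FNIP2, 0.853 for CTSL, 0.884 for ZCCHC3 and 0.815 for UBE2J1. FA2H, a fatty acid hydroxylase of the sphingolipid pathway, read 0.77, 0.36, 0.46 and 0.30 in sictrl and 1.88, 1.77, 1.76 and 1.44 in siUCA1. FNIP2, a partner of the tumor suppressor folliculin, was higher by 1.45 on the log2 scale, the lysosomal protease gene CTSL by 0.66, ZCCHC3 by 0.66 and UBE2J1, a ubiquitin-conjugating enzyme of the endoplasmic reticulum, by 0.63. These 5 genes were chosen for their likeness to CCNA1, so that the likeness is a description.

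**Figure D2:**
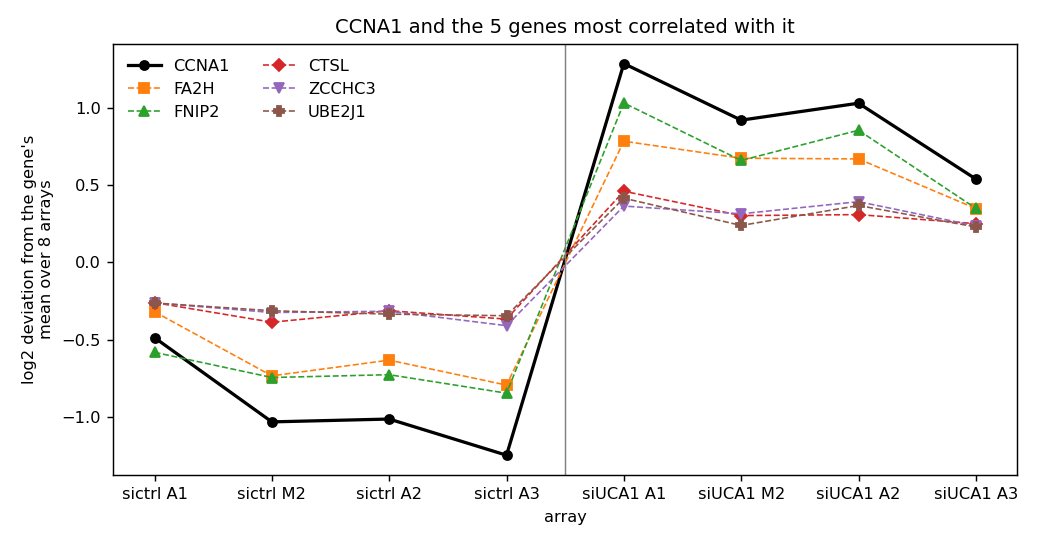
The log2 deviation from the gene's own mean over the 8 arrays (y axis) is plotted for each array (x axis; sictrl left of the line, siUCA1 right) for CCNA1 in black and the 5 genes most correlated with it. CCNA1 has the widest step between the conditions, and siUCA1 A3 is the lowest siUCA1 array for all 6 genes.

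Among the D-type cyclins, CCND3 (A_23_P361773) was lower in siUCA1. It read 2.33, 2.22, 2.39 and 2.59 in sictrl and 2.12, 1.75, 1.62 and 1.98 in siUCA1. The groups did not overlap, but they were only 0.10 apart, between sictrl M2 and siUCA1 A1. The mean was 2.38 ± 0.16 (SD, n = 4) in sictrl and 1.87 ± 0.22 in siUCA1, a difference of -0.52 on the log2 scale (SE 0.14), or 1.43-fold lower. The difference was -0.26 in row 1 of the slide and -0.77 in row 2, with 2 arrays per condition in each.

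CCND1 (A_23_P202837) is the D-type cyclin best known from amplification in tumors, and its probe is printed 10 times on each array. The mean of the spots, without 2 spots marked as outliers on sictrl M2, was 3.05, 2.82, 2.94 and 2.84 in sictrl and 2.88, 3.01, 2.75 and 2.85 in siUCA1. The groups overlapped over most of their range. The mean over arrays was 2.91 ± 0.11 (SD, n = 4) in sictrl and 2.87 ± 0.10 in siUCA1, with a difference of -0.04 (SE 0.08). Only 12.7% of the genes tested had a smaller SD between replicates.

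The repeated spots of CCND1 show how well 1 spot stands for an array. The SD over the spots was between 0.047 and 0.095 on the log2 scale on 6 arrays. On sictrl A3 it was 0.43, with single spots from 1.93 to 3.52, and on siUCA1 A1 it was 0.33, with spots from 2.02 to 3.25. Between these arrays, the deviations over the 10 spots had r = 0.407, which is too few spots to establish a shared pattern. The spot in row 99, column 46 was 0.44 below the mean of sictrl A3 and 0.86 below that of siUCA1 A1, whereas the spot in row 115, column 38 was 0.91 below the first mean and 0.02 above the second. The other 10 kept probes of the members have 1 spot per array, and no such spread can be given for them.

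**Figure D3:**
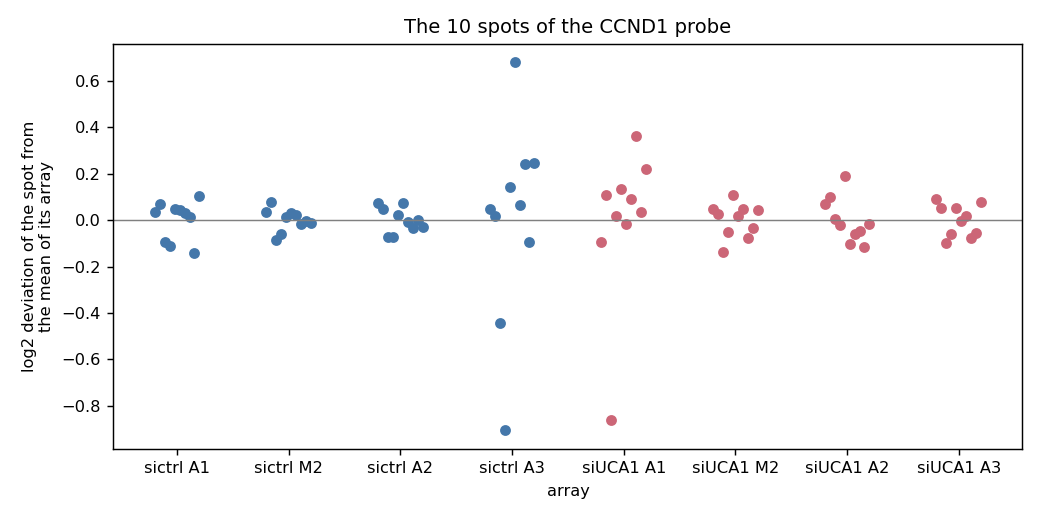
Each point is 1 of the 10 spots of the CCND1 probe, plotted as its log2 deviation from the mean of its array (y axis) for each of the 8 arrays (x axis; blue, sictrl; red, siUCA1), in the order of the spot's row. The spots scatter by up to 0.91 on sictrl A3 and 0.86 on siUCA1 A1 and stay within 0.19 of the mean on the other 6 arrays.

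CCND2 (A_24_P278747) was not well above background on any of the 8 arrays, and its processed intensity was 2.79 to 5.45. No fold is given for it.

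Of the E-type cyclins, CCNE1 (A_23_P209200) read 6.87, 6.64, 6.79 and 7.17 in sictrl and 7.69, 6.99, 7.07 and 7.28 in siUCA1. The groups overlapped through sictrl A3, which lay above siUCA1 M2 and A2. The mean was 6.87 ± 0.22 (SD, n = 4) in sictrl and 7.26 ± 0.31 in siUCA1, a difference of 0.39 on the log2 scale (SE 0.19). The difference was 0.76 among the arrays of slide row 1 and 0.01 among those of row 2, so that the size depends on which arrays are set against each other. Without sictrl A3 and siUCA1 A1 it was 0.34.

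CCNE2 was read by 2 probes of the same RefSeq transcript (NM_057749), and they went in opposite directions. The brighter, A_33_P3247022, read 0.60, 0.73, 0.58 and 0.53 in sictrl and 0.87, 0.88, 1.00 and 1.07 in siUCA1, higher by 0.35 on the log2 scale (SE 0.06). The dimmer, A_33_P3217819, read -0.26, -1.10, -1.01 and -0.49 in sictrl and -2.42, -1.27, -1.43 and -1.36 in siUCA1, lower by 0.90 (difference -0.90, SE 0.34). In neither did the groups overlap. The dimmer probe was well above background on 4 sictrl and 3 siUCA1 arrays, and its difference was -0.56 without sictrl A3 and siUCA1 A1, when that of the brighter probe was 0.35. Within the conditions the 2 probes were nearly unrelated (r = 0.078 over 8 arrays). When the kept probes were averaged, CCNE2 had a difference of -0.28, so that the direction given for this gene rests on the choice of probe. Why the probes differ was not tested.

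Of the CIP/KIP inhibitors, CDKN1B, which encodes p27, was read by 2 probes. A_23_P204696 read 1.69, 1.72, 1.67 and 2.26 in sictrl and 2.35, 2.18, 2.11 and 2.27 in siUCA1. On this probe 3 sictrl arrays lay between 1.67 and 1.72, below all siUCA1 arrays, and sictrl A3 lay among the siUCA1 arrays. The difference was 0.39 on the log2 scale (SE 0.15; 1.83 ± 0.29 against 2.23 ± 0.11, SD, n = 4), and it was 0.54 without sictrl A3.

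The second CDKN1B probe, A_24_P81841, read 1.05, 1.09, 0.76 and 0.22 in sictrl and 0.71, 1.33, 1.42 and 1.51 in siUCA1, a difference of 0.46 (SE 0.27). Here sictrl A3 was the lowest array and not the highest, and siUCA1 A1 was the lowest of its condition and not the highest. Within the conditions the 2 probes were opposed (r = -0.793 over 8 arrays). Without the 2 arrays that stood apart, the difference was 0.49 on the first probe and 0.45 on the second.

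CDKN1C (A_23_P428129), which encodes p57 and is imprinted, read 0.23, 0.45, 0.46 and 1.04 in sictrl and 0.87, 0.39, 0.76 and 0.85 in siUCA1. The groups overlapped over the whole range of siUCA1. The difference was 0.17 on the log2 scale (SE 0.21), 0.29 without sictrl A3 and siUCA1 A1, and 0.40 and -0.06 in the 2 rows of the slide.

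Of the INK4 inhibitors, CDKN2A was read by 2 probes that name different transcripts, and neither the files nor the tables used here give their position in the transcript, so their signal cannot be assigned to p16 or ARF. A_23_P43490 (NM_058197) read 4.98, 5.29, 5.24 and 6.64 in sictrl and 5.57, 5.35, 5.47 and 5.69 in siUCA1. Its mean was 5.53 ± 0.75 (SD, n = 4) in sictrl and 5.52 ± 0.15 in siUCA1, a difference of -0.02 (SE 0.38). The reading of sictrl A3 set both the mean and the SD of its condition: 94.6% of the genes tested had a smaller SD between replicates, and without that array the difference was 0.35. The spot of this probe on sictrl A3 was 1.47 above the mean of the other 3 sictrl arrays, while the median of the same deviation over the 142 spots around it was 0.26, and the nearest spot of CCND1, in row 212 and column 8, was 0.68 above the mean of its 10 spots on that array.

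A_33_P3411628 (NM_000077) read 2.32, 2.58, 2.67 and 2.93 in sictrl and 2.72, 2.78, 2.79 and 3.04 in siUCA1, a difference of 0.21 (SE 0.14). The groups overlapped through sictrl A3 alone, and sictrl A3 was the highest sictrl array on both CDKN2A probes. The 2 probes followed each other within the conditions (r = 0.828 over 8 arrays), which the pairs of probes of CCNE2 and CDKN1B did not. Without sictrl A3 and siUCA1 A1 the difference was 0.34 on both probes.

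CDKN2B (A_23_P216812), the neighbor of CDKN2A on chromosome 9, was not well above background on any array, with a processed intensity of 2.88 to 16.7. The noncoding RNA CDKN2B-AS1, which overlaps CDKN2B on the other strand, was detected by none of its 4 probes on any array, and neither was DMRTA1 beyond it. MTAP, on the other side of CDKN2A, was detected on all 8 arrays with a log2 fold change of -0.12 (adjusted p = 0.478).

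**Figure D4:**
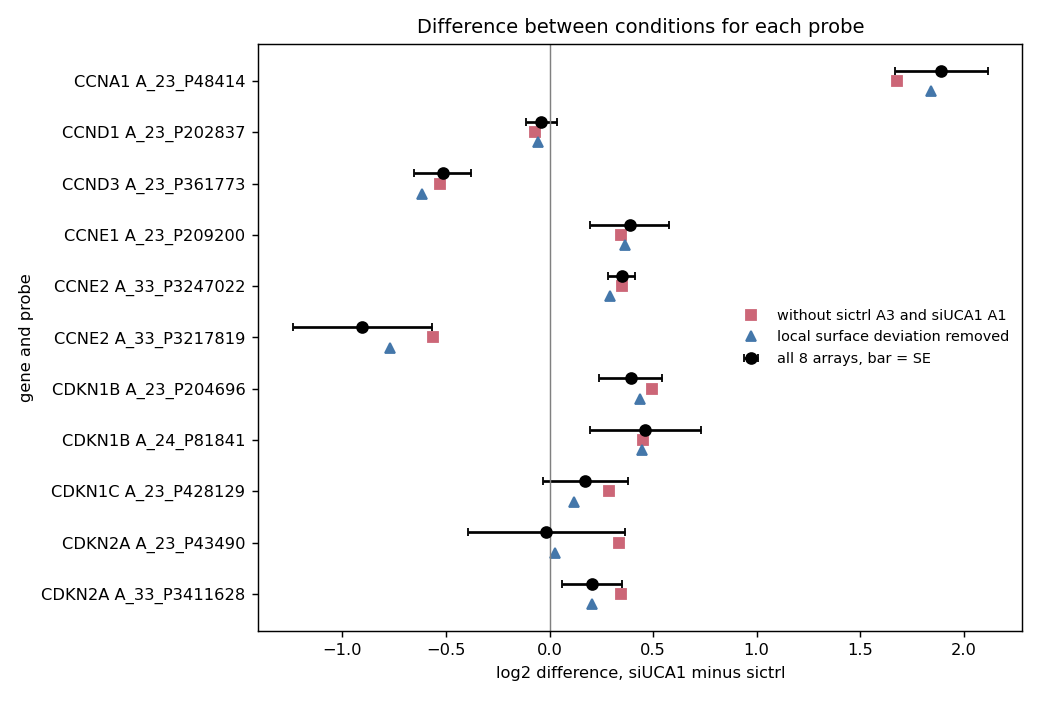
The log2 difference, siUCA1 minus sictrl (x axis), is plotted for each kept member probe (y axis) over all 8 arrays (black, bar = SE), without sictrl A3 and siUCA1 A1 (red) and with the local surface deviation of each array removed (blue). The CCNA1 probe lies between 1.68 and 1.89, and the brighter CDKN2A probe moves from -0.02 to 0.34 when the 2 arrays are left out.

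Across the members, the median log2 difference of the 8 genes measured was 0.26 and the median of its absolute value was 0.37, against 0.03 and 0.20 over all 15455 genes tested. In the fit over all genes, 1788 genes (11.6%) had an adjusted p under 0.05. Of these, 884 were higher in siUCA1 (5.72% of the genes tested) and 904 lower (5.85%), which makes 49.4% of the calls higher, or 21.3% when arrays were scaled to their median. The 4 arrays of a condition lay all above or all below the other 4 for 20.8% of the genes tested. Of the 8 members, 3 were among the called genes (CCNA1 and CCNE2 higher, CCND3 lower) and the same 3 had groups that did not overlap. Nothing is read from these medians and counts, since the members were chosen on this contrast. The medians also use the brighter probe of CCNE2, whose other probe went in the opposite direction. When 1 array was left out, the difference ran from 1.78 to 2.04 for CCNA1 and from -0.60 to -0.43 for CCND3. It ran from 0.31 to 0.39 for the brighter CCNE2 probe and from 0.34 to 0.54 for the brighter CDKN1B probe. The calls of CCND3 and CCNE2 ended in 7 of these 8 fits, and no such call supports a member.

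Other genes of the same pathway were taken from 9 lists, with 84 genes in all. The lists were chosen by function with earlier results of these data known, so their counts are no independent check. Of the 84 genes, 83 were on the array and 74 could be tested, and 5 rose and 6 fell (14.9% called against 11.6% of all genes tested). CDKN1A, the third CIP/KIP inhibitor, which encodes p21, rose, and CDK4, the kinase partner of the D-type cyclins, fell. Also lower were CCNY, CCNG2, ORC1, TK1 and RRM2, and also higher were E2F7, FOXO3, CDT1 and E2F5. The other 63 did not pass the test. With the replicate name as a block, CCNG2, FOXO3, CDT1 and E2F5 did not pass either (adjusted p = 0.0524 to 0.0860), whereas PHLDA2 did (0.0329).

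CDKN1A read 1.22, 1.22, 1.27 and 1.52 in sictrl and 2.90, 2.49, 2.28 and 2.62 in siUCA1, a log2 fold change of 1.26 (SE 0.14, adjusted p = 0.0024). The lowest siUCA1 value was above the highest sictrl value, as for CCNA1. The INK4 inhibitors CDKN2C and CDKN2D had log2 fold changes of -0.06 (adjusted p = 0.744) and -0.03 (adjusted p = 0.890).

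CDK4 read 6.01, 6.06, 6.07 and 5.86 in sictrl and 5.27, 4.68, 4.80 and 4.74 in siUCA1, a log2 fold change of -1.13 (SE 0.14, adjusted p = 0.0032). The groups did not overlap, and siUCA1 A1 lay nearest to sictrl. Of the other kinases and activators in its list, 5 were tested and none passed, among them CDK2 at 0.00 (adjusted p = 0.993), while CDK6 could not be tested because it was not detected on all arrays of either condition. Of D-type cyclins and their kinases, CCND3 and CDK4 were thus both lower on every siUCA1 array than on every sictrl array, and CCND1 was not.

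Among the other cyclins and CDK1, 2 of 15 genes tested fell and 13 did not pass. CCNY, a membrane-bound cyclin, read 0.99, 0.93, 0.68 and 1.19 in sictrl and 0.23, -0.52, -0.60 and -0.67 in siUCA1 (log2 fold change -1.34, SE 0.21, adjusted p = 0.0066). CCNG2, an atypical cyclin known for its high level in resting cells, had a log2 fold change of -0.90 (SE 0.22, adjusted p = 0.0329) on its brightest probe and of -0.18 on another kept probe. CCNA2, the A-type cyclin of dividing cells, was at -0.01 (adjusted p = 0.974) and CDK1 at 0.04 (adjusted p = 0.824), beside a difference of 1.89 for CCNA1.

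Of the 16 E2F target genes of the G1/S step, 1 rose, 3 fell and 12 did not pass, with a median log2 fold change of -0.08. TK1, the thymidine kinase of S phase, fell by 0.59 log2 units (adjusted p = 0.0073), with sictrl at 9.68 to 9.84 and siUCA1 at 9.02 to 9.29. RRM2, a subunit of ribonucleotide reductase, fell by 0.52 (adjusted p = 0.0295), and ORC1, of the origin recognition complex, fell by 0.59 log2 units (adjusted p = 0.0473). CDT1, which loads the replicative helicase, rose by 0.35 (adjusted p = 0.0355). The 6 MCM helicase genes ranged from -0.30 to 0.13 and none passed.

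Of the 13 pocket proteins, E2F and DP factors, E2F7, a repressor of E2F targets, rose by 0.58 (adjusted p = 0.0110) and E2F5 by 0.33 (adjusted p = 0.0456), and 11 did not pass. RB1 itself was at 0.11 (adjusted p = 0.493) and E2F1 at -0.12 (adjusted p = 0.487). Of the 9 factors tested that act on transcription of D-type cyclins or INK4 genes, FOXO3 rose by 0.48 (adjusted p = 0.0304) and the other 8 did not pass. None of the 8 ubiquitin ligase genes tested passed, with SKP2, which marks p27 for degradation, at 0.18 (adjusted p = 0.235). Of the 3 neighbors of CDKN1C that were tested, none passed in the fit without a block. NAP1L4 was at -0.32 (adjusted p = 0.0765), PHLDA2 at -0.82 (adjusted p = 0.127) and the antisense RNA KCNQ1OT1 at 0.38 (adjusted p = 0.514). The KCNQ1OT1 probe was well above background on 4 sictrl and 3 siUCA1 arrays, and its value hung on single arrays: it was 0.75 (adjusted p = 0.0376) without siUCA1 A3, 0.16 (adjusted p = 0.780) without siUCA1 A1 and 0.08 (adjusted p = 0.889) without sictrl A3 and siUCA1 A1.

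CDKN1A, CDK4, CCNY, E2F7 and TK1 passed in each of the 8 fits that left out 1 array. Of these, E2F7 and TK1 did not pass with scaling to the array median (adjusted p = 0.227 and 0.0855) or with normexp (0.129 and 0.0694), and none of the 5 passed without a detection filter (0.0503 for CDKN1A, 0.0671 for CDK4, 0.0877 for CCNY, 0.235 for E2F7 and 0.196 for TK1). CCNG2 passed in 3 of them, and not without sictrl A1 or M2 or without siUCA1 M2, A2 or A3 (adjusted p = 0.0617 to 0.0841). FOXO3 (adjusted p = 0.0579 to 0.0743), CDT1 (0.0598 to 0.107), RRM2 (0.0646 to 0.0947) and ORC1 (0.113 to 0.132) passed only where sictrl A3 or siUCA1 A1 was the array left out. E2F5 passed in 0 of the 8 (adjusted p = 0.0588 to 0.122). Without both sictrl A3 and siUCA1 A1, 25 of the companion genes were called in place of 11. Calls over all genes rose as well, from 1788 of 15455 tested to 3879 of 15990, so the rise is not confined to these genes.

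**Figure D5:**
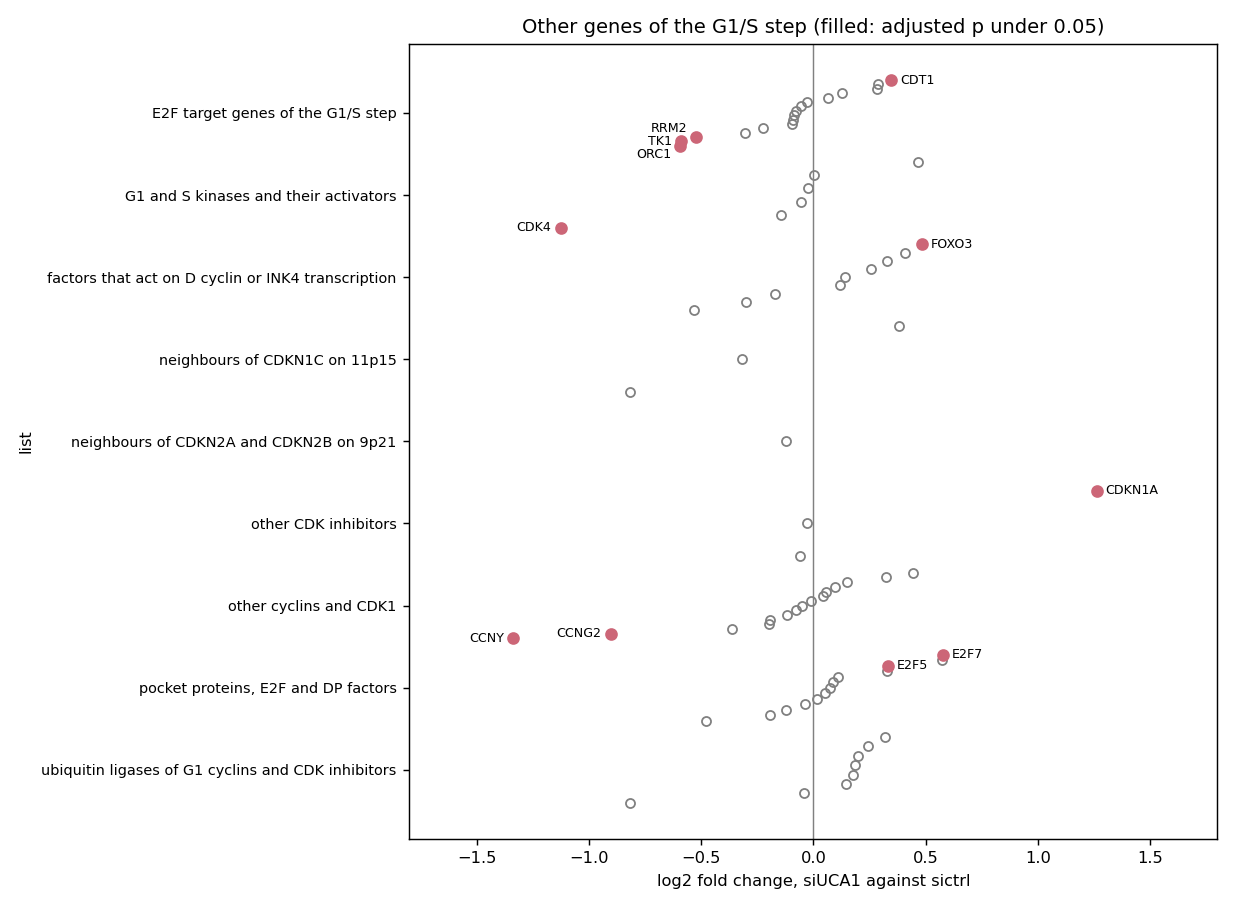
The log2 fold change of siUCA1 against sictrl (x axis) is plotted for each of the 74 tested genes of the 9 companion lists (y axis), filled and named where the adjusted p was under 0.05. CDKN1A at 1.26 and CCNY at -1.34 lie farthest from 0, and 63 genes are open circles.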

How the data were processed

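Per the labels and file headers, the authors deposited Feature Extraction 10.7.3.1 output with a processed intensity per spot on a linear scale, corrected for background and surface trend and not normalized between arrays. The deposited series table repeats this intensity. Here it was put on the log2 scale and centered, array by array, on the 75th percentile over all spots other than controls. Outlier spots were dropped and repeated spots averaged. Kept were the 19046 probes that the software marked as well above background on each of the 4 arrays of sictrl, of siUCA1 or of both, and the brightest of a gene's kept probes entered the fit. Gene symbols came from RefSeq (GRCh38.p14; 31105 of 58201 probes), and NM_003914 was matched to CCNA1 directly. The number of arrays limits the precision, and p-values measure the spread between 4 arrays per condition.

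The fit used limma 3.58.1 (lmFit and eBayes) with Benjamini-Hochberg adjustment over 15455 genes, run in R 4.3.3 (with version 1.17.8 of data.table); Python 3.11.15 and matplotlib 3.10.9 served for figures and promoter matches. It was tested on simulated data. Members and lists were chosen with earlier results of these data known. Named are all members, UCA1, the 10 largest rises and falls of the companion lists among called genes, all other CDK inhibitors and neighbors of the INK4 and CDKN1C genes, and the 5 genes most correlated with CCNA1; other genes were chosen after their values were seen. Alternatives covered scaling, detection filter, background correction, probe choice, outlier spots, blocks and left-out arrays. The slide column, single slide rows and the removal of local surface deviations (tiles of 24 by 20 spots) were added after seeing the data.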

Additional observations from a re-analysis of the deposited data

Results flagged for a closer look

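In 6 of 56 sets of 4 arrays tested, 1 array lay far from the other 3 of its condition by Dixon's criterion, which chance meets in about 5% of sets. In each of them the array was sictrl A3 or siUCA1 A1. Among the members, the CDKN1B probe A_23_P204696 read 2.26 on sictrl A3, where the other 3 sictrl arrays read 1.67 to 1.72, and the dimmer CCNE2 probe read -2.42 on siUCA1 A1 against -1.43 to -1.27. Among the other genes, CDKN1A read 1.52 on sictrl A3 against 1.22 to 1.27. On siUCA1 A1, CCNY read 0.23 against -0.67 to -0.52, ORC1 read 1.16 against 0.53 to 0.60, and CDKN2D read 3.73 against 3.39 to 3.44. The fitted surface trend of these 2 arrays was 0.321 and 0.287 against at most 0.0943 on the others, a trend that was already removed. On sictrl A3 the CDKN1B spot was 0.57 above the mean of the other sictrl arrays and the spots around it were 0.32 above (median), and with the local surface deviation removed it read 1.99 against 1.67 to 1.75. On siUCA1 A1 the CCNE2 spot was 1.06 lower than on the others (deviation -1.06) and the spots around it were at -0.30, and it then read -2.29 against -1.42 to -1.21. With that deviation removed, the log2 fold change of CDKN1A was 1.04 in place of 1.26 and that of CCNY -1.42 in place of -1.34. ORC1 was at -0.60 in place of -0.59, and CDKN2D stayed at -0.03. The part of the surface in the single readings of these genes was not tested.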

How the results depend on the processing

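The member differences moved by less than 1 SD between replicates in 183 of 192 values recomputed under other settings, and the exceptions were among CCNA1, CCND3, CCNE1, CCNE2 and CDKN1B. Changing the detection filter, raising dim values to the detection limit, adding a block or keeping outlier spots left every member difference as reported. The count therefore overstates how stable the differences are. CCNE2 turned to -0.28 with the mean of its kept probes, which the opposite direction of the second probe gives. Differences near 0 changed sign within that SD: CDKN2A in 8 of 24 settings (-0.40 to 0.37, with an SD of 0.54 that sictrl A3 widens), CCND1 in 2 and CDKN1C in 1. Of 373 fold changes of named companion genes, 290 stayed on their side of the threshold, 81 lost the call and 2 gained it. Among the called genes 0 turned in sign; of those not called, CDKN2C turned to 0.01 with normexp and CDKN2D to 0.00 without siUCA1 M2 or A2. The number of DEGs was 1788 as reported, 535 with scaling to the array median, 76 without a detection filter, 380 with normexp, 3879 without sictrl A3 and siUCA1 A1, and 760 to 2292 when 1 array was left out. The number of companion genes called was 11 as reported, 4 with scaling to the median, 3 with normexp, 7 with the slide row and 6 with the slide column as a block, 25 without sictrl A3 and siUCA1 A1, and 5 to 15 when 1 array was left out. Without a detection filter limma called 0 of them, and 15 of 83 had an unadjusted p under 0.05, against 24 of 74 as reported. The causes were not tested. Arrays of the same replicate name did not all deviate together (r = 0.038 for A1, 0.278 for M2, 0.216 for A2 and 0.127 for A3), while r between arrays of different names ran from -0.311 to 0.205. sictrl A1 and sictrl A3 correlated best with siUCA1 arrays of another name (0.109 and 0.177), so the names do not establish pairing. With the replicate block there were 1727 DEGs and 8 companion genes called: PHLDA2 passed (adjusted p = 0.0329), and CCNG2 (0.0860), FOXO3 (0.0604), CDT1 (0.0534) and E2F5 (0.0524) did not. The calls of the members CCND3 and CCNE2 ended as well. No call is read as support for a member, since the members were chosen on this contrast. Dim probes, such as those of CCND2 and CDKN2B, are limited by the background.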
